A study of Mus musculus with 6 samples.

Results

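The genes described here are 10 regulators and outputs of the stress response around activating transcription factor 4 (ATF4), namely Atf4, Atf3, Atf5, Ddit3, Trib3, Chac1, Sesn2, Ddit4, Ppp1r15a and Asns. They were found by gene name among the 54532 genes of the deposited count table. They were chosen by a pathway name with the differences between the 2 groups of these libraries already known. Their differences are therefore given as a description. The calls that the fits of all genes made among them are counted beside the share of all genes called, and support nothing. All 10 passed the filter on low counts, which left 15307 genes. The name Ddit3 stood on 2 rows, and the second (ENSMUSG00000116429, 105 bases long and inside the first) had 0 counts in all libraries and was set aside.

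ATF4 is a basic leucine zipper (bZIP) factor whose mRNA is translated best when the initiation factor eIF2α is phosphorylated. Kinases that sense endoplasmic reticulum (ER) stress, amino acid shortage, haem shortage, mitochondrial stress or double-stranded RNA carry out that phosphorylation, and the whole pathway is called the integrated stress response. ATF4 protein can therefore change without its mRNA, which is what was counted here. ATF4 and its partners switch on genes for amino acid synthesis and import, for the related factors Atf3, Atf5 and Ddit3, and for feedback regulators that end the response.

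RNA-seq was done on 6 samples of MLE12, an immortalised mouse lung epithelial line labelled as C57BL/6J. The 3 control samples had received lentivirus with an empty vector (named Ctrl shRNA by the study), and the 3 knockdown samples had received a lentivirus silencing Idh3α together with a lentivirus silencing Slc25a1. Idh3a encodes the catalytic subunit of the NAD-dependent isocitrate dehydrogenase of mitochondria and Slc25a1 the mitochondrial citrate carrier. Each virus was given at a multiplicity of infection of 50, washed off after 16 h and followed by 80 h of further culture, so the knockdown cells carried 2 viruses. The effects of the separate knockdowns and of the viral load cannot be told apart from that of the pair, and the labels do not say that replicates came from separate cultures, so p-values measure only the spread between these samples.

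The libraries held 27273502 to 28535653 counts. Control replicate 2 stood apart. It had 16681 genes detected where the other libraries had 19902 to 23147, and 6.49% of its counts lay on mitochondrial genes, against 1.57% to 1.80%. A share of 27.2% of its counts lay on 100 genes, where the 100 leading genes of the other libraries held 12.6% to 12.9%, and its correlation with each other library was 0.946 to 0.966. The 10 genes are therefore given with it and without it. For the other lists some values are given in 1 fit only, which is named. CPM values are counts scaled to a common library total, with library sizes adjusted by the trimmed mean of M values (TMM). The targeted Idh3a had a CPM of 79.8, 137 and 93.0 in control replicates 1 to 3. Its values in knockdown replicates 1 to 3 were 58.5, 57.9 and 55.5. Those of Slc25a1 were 103, 98.7 and 108 in controls and 68.9, 69.6 and 63.0 in knockdown cells, and neither gene's groups overlapped. With all libraries the log2 fold changes were -0.85 for Idh3a and -0.62 for Slc25a1 and neither passed (edgeR quasi-likelihood test, Benjamini-Hochberg adjusted p = 0.254 and 0.104), while without control replicate 2 they were -0.60 and -0.66 (adjusted p = 0.0142 and 0.00649). Of 16 epithelial and alveolar type 2 markers 9 passed the filter, and their list summed to 922 to 1025 CPM in controls and 915 to 974 CPM in knockdown cells, with Cldn4, Sftpa1, Sftpd and Slc34a2 under 10 counts in every library. The list did not shift one way. Of the 9, all knockdown libraries lay below all controls in 3 (Epcam, Nkx2-1 and Sftpc), against 10.7% of the 15307 genes. They lay above all controls in 3 (Cdh1, Lpcat1 and Napsa, the last at 1.38 CPM or less), against 14.7%. The groups overlapped in 3 (Krt8, Sftpb and Abca3). The 1 marker called in either fit was the surfactant gene Sftpc, at 44.1, 97.3 and 50.9 CPM in controls and 35.9, 28.5 and 27.2 CPM in knockdown cells. Its log2 fold change was -1.07 with all libraries (edgeR adjusted p = 0.315) and -0.65 without control replicate 2 (adjusted p = 0.0438), and its part in the values below was not tested. The list of 14 leukocyte, endothelial and fibroblast markers, of which 5 passed, summed to 348 to 1235 CPM in controls and 320 to 348 CPM in knockdown cells. The top of that range was control replicate 2 and came from the fibroblast gene Dcn (1211 CPM there, 320 and 354 CPM in the other controls). In knockdown cells Dcn was at 297, 318 and 300 CPM, below all controls and with no edgeR call in either fit, while Ptprc, Adgre1, Cdh5 and Col3a1 were under 10 counts. Of the 4 other markers that passed, Pdgfra (2.23 to 2.68 CPM in controls, 3.43 to 3.91 CPM in knockdown cells) and Cd68 (1.65 to 1.92 CPM in controls, 2.34 to 2.73 CPM in knockdown cells) had all knockdown libraries above all controls, with no edgeR call in either fit, and Pecam1 and Col1a1 overlapped. The part of this library's difference in the values below was not tested.

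Among the 10 genes, the enzymes and inhibitors that ATF4 switches on had the lower values in knockdown cells, above all Chac1, Asns, Trib3, Ddit4 and Sesn2. The mRNAs of the factors themselves (Atf4, Atf3, Atf5, Ddit3) and of the phosphatase subunit Ppp1r15a had log2 fold changes of -0.22 to 0.08 when control replicate 2 was set aside, nearer to 0 than those of the former 5 genes (-0.35 and below). Of these, Atf3, Ddit3 and Ppp1r15a then overlapped with the controls, whereas Atf4 and Atf5 lay below both of them, and Atf5 was further from them than with all libraries (-0.14). With all libraries that split was not there, since Ddit3 (-0.44 on the log2 scale) lay further from the controls than Sesn2 (-0.32). In the following, values are CPM on the same TMM scale as above, given for replicates 1 to 3 in order. A fold change is knockdown over control on the log2 scale with its standard error (SE) from the edgeR fit of all genes. Positions are on GRCm38. RNA came from whole cultures, so fewer cells with an mRNA and less of it per cell cannot be told apart.

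**Figure D1:**
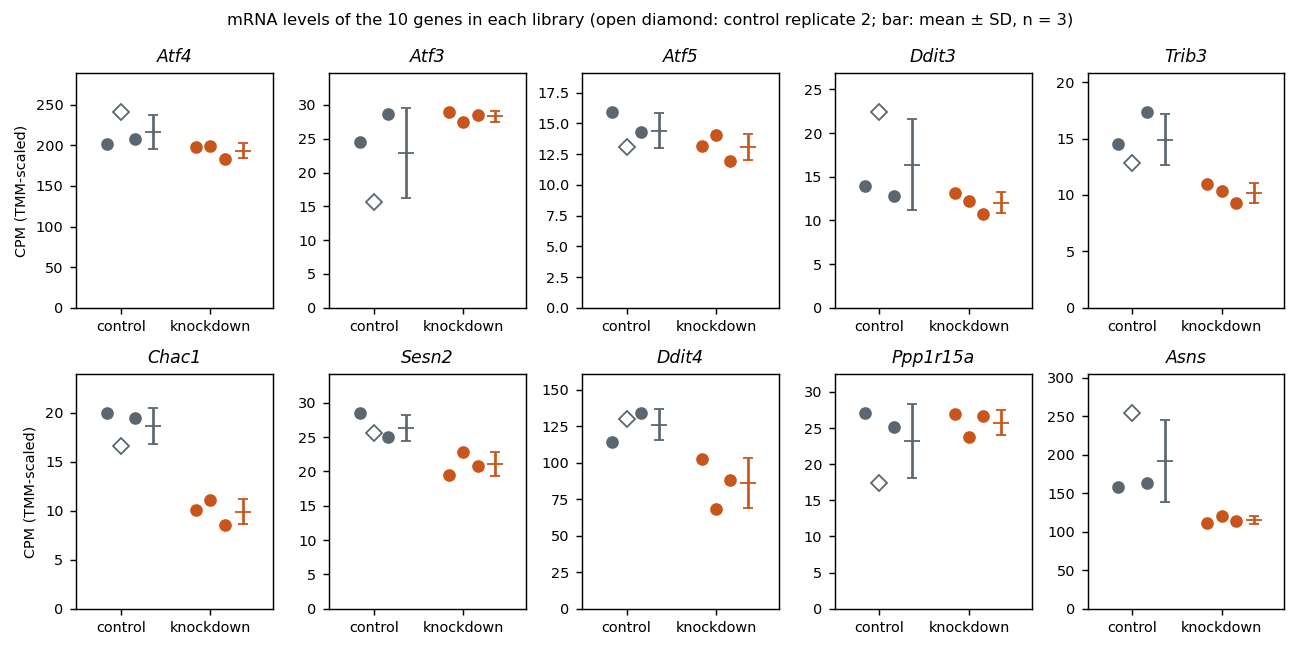
Level of each of the 10 genes in each library, in CPM on axes that start at 0, with 1 point per library, horizontal ticks for the group mean and error bars for the SD (n = 3), and control replicate 2 drawn with its own marker. The knockdown points of Chac1 (8.53 to 11.1) and Asns (112 to 120) sit below all control points, while those of Atf3 and Ppp1r15a overlap with the control points.

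Chac1 (ENSMUSG00000027313, chromosome 2, 119351229 to 119354381, plus strand) encodes a gamma-glutamyl cyclotransferase that degrades glutathione. Its CPM was 19.96, 16.6 and 19.5 in controls and 10.1, 11.1 and 8.53 in knockdown cells. Every knockdown library lay below every control library, control replicate 2 included. The mean was 18.7 ± 1.82 in controls and 9.91 ± 1.28 in knockdown cells (SD, n = 3). The log2 fold change was -0.92 (SE 0.14) with all libraries and -1.003 (SE 0.12) without control replicate 2, the latter a difference of -50.1% and the widest among the 10 genes in both fits.

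Trib3 (ENSMUSG00000032715, chromosome 2, 152337422 to 152344032, minus strand) encodes a pseudokinase that binds ATF4 and CHOP and feeds back on the response. Its CPM was 14.5, 12.9 and 17.3 in controls and 11.0, 10.3 and 9.27 in knockdown cells. The groups did not overlap, although control replicate 2 was the lowest control. Its log2 fold change was -0.55 (SE 0.15), and -0.65 (SE 0.12) without that library.

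Asns (ENSMUSG00000029752, chromosome 6, 7675169 to 7693254, minus strand) encodes asparagine synthetase, a classical output of amino acid shortage. Its CPM was 158, 254 and 164 in controls and 112, 120 and 113 in knockdown cells. Control replicates 1 and 3 were close together and replicate 2 was 1.58 times their mean, so the control mean of 192 ± 53.7 (SD, n = 3) was set in part by 1 library. The knockdown libraries lay below all controls at 115 ± 4.60 (SD, n = 3). With all libraries the log2 fold change was -0.74 (SE 0.19), and it became -0.49 (SE 0.07) without control replicate 2, a difference of -28.8% with the smallest SE of the 10 genes.

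Asns and Chac1 carry, before their RefSeq start, the core of the C/EBP-ATF response element, the composite site to which ATF4 binds with a C/EBP partner. The core was searched as TGATGNAA on both strands in the RefSeq promoters of all genes (250 bases before to 50 after the start, GRCm38.p6), together with the palindromic cAMP response element TGACGTCA. The 2 motifs overlap in their first letters, TGA, and differ in the letter after them. All 10 genes had an entry, Atf5 with 2 windows. The first core was in the window of 4 of 10 genes (Asns, Atf3, Chac1 and Trib3), against 3.97% of all 32851 promoters and 2.20% of the 13348 promoters of genes tested. It lay before the RefSeq start in 3 of 10, since the match of Trib3 lay after it, against 3.45% and 1.93%. The placing depends on the start used. By the gene positions given here, the match of Trib3 (152344039 to 152344046) lies before the gene, as does that of Chac1. Those of Asns (7693225 to 7693232) and Atf3 (191183436 to 191183443) lie inside the gene. The second was in 1 of 10, Ppp1r15a, against 1.79% of all promoters and 3.05% of those of genes tested. These shares count windows, and the 10 genes had 11. A match describes letters and does not show binding, and its absence elsewhere speaks only of this window. The 60 bases around each match before the start are shown because these are the letters through which the pathway's factors can act, written 5′ to 3′ on the strand of the gene with the match in capitals.
Chac1, chr2:119351023-119351082, plus strand: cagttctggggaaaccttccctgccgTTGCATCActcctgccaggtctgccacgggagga
Asns, chr6:7693210-7693269, minus strand: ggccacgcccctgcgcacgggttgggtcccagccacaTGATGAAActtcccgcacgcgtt
Atf3, chr1:191183410-191183469, minus strand: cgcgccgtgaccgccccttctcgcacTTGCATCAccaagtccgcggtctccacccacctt
Ppp1r15a, chr7:45526269-45526328, minus strand: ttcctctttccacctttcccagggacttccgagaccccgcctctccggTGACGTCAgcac
The matches of Chac1 and Atf3 have the same letters and read on the strand opposite to the gene, whereas that of Asns reads on the strand of the gene. Of the genes with a match before the start, Chac1 and Asns had all knockdown libraries below all controls, whereas the groups of Atf3 and Ppp1r15a overlapped.

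Sesn2 and Ddit4 encode inhibitors of the growth kinase complex mTORC1 and are also switched on by p53 (Sesn2) and by low oxygen and glucocorticoids (Ddit4). Sesn2 (ENSMUSG00000028893, chromosome 4, 132492032 to 132510501, minus strand), a leucine-binding protein, had a CPM of 28.5, 25.6 and 25.0 in controls and 19.5, 22.9 and 20.8 in knockdown cells. The groups did not overlap, with a gap between the highest knockdown and the lowest control library that was smaller than the range within either group. For Sesn2 the log2 fold change was -0.32 (SE 0.10), and -0.35 (SE 0.10) without control replicate 2. Ddit4 (ENSMUSG00000020108, chromosome 10, 59949669 to 59951834, minus strand), also called REDD1, had a CPM of 114, 130 and 134 in controls and 102, 68.5 and 88.2 in knockdown cells. It was the most variable of the 10 genes among the knockdown libraries, with a mean of 86.4 ± 17.1 (SD, n = 3) against 126 ± 10.4 in controls, and knockdown replicate 2 was its lowest library. For Ddit4 the log2 fold change was -0.55 (SE 0.16), and -0.53 (SE 0.15) without control replicate 2.

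Atf4 itself (ENSMUSG00000042406, chromosome 15, 80255184 to 80257541, plus strand) had a CPM of 201, 240 and 208 in controls and 198, 200 and 183 in knockdown cells. The groups met without overlapping: knockdown replicate 2 was just under control replicate 1. The mean was 216 ± 21.2 in controls and 193 ± 8.91 in knockdown cells (SD, n = 3), with control replicate 2 the highest library. On the log2 scale the fold change was -0.16 (SE 0.10) and -0.09 (SE 0.07) without that library, and 0.03 when counts were scaled by library size alone, so its direction depended on the scaling. Scaling by library size alone moved the median of all genes to 0.16.

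Atf5 (ENSMUSG00000038539, chromosome 7, 44812256 to 44816658, minus strand), a factor linked to the mitochondrial stress response, had a CPM of 15.9, 13.1 and 14.3 in controls and 13.1, 14.1 and 11.9 in knockdown cells. The groups overlapped through control replicate 2. The log2 fold change was -0.14 (SE 0.12) and -0.22 (SE 0.11) without it, and 0.01 with library size alone. The gene lies opposite Nup62 and Il4i1, which each share 82 bases of exon with it (4.11% of its own exon bases) and together had 26129 counts where Atf5 had 2331. The use of strand in counting is not given in the sources used here, so reads from the shared bases cannot be assigned and the value of Atf5 is uncertain.

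Ddit3 (ENSMUSG00000025408, chromosome 10, 127290774 to 127296288, plus strand) encodes CHOP, the factor that drives the late, death-promoting part of ER stress. Its CPM was 14.0, 22.4 and 12.8 in controls and 13.1, 12.3 and 10.8 in knockdown cells. Control replicate 2 was 1.67 times the mean of the other controls, the widest departure upward among the 10 genes, and knockdown replicate 1 lay between control replicates 1 and 3. The log2 fold change of -0.44 (SE 0.23) became -0.16 (SE 0.12) without that library. Ddit3 lies opposite Mars and Gm4189, with 68 and 13 shared exon bases, so its value is uncertain in the same way. The second row named Ddit3 shares 105 exon bases with it (6.13% of its own) on the same strand. Reads from those bases cannot be assigned by strand. The other overlaps were small: Gm24748 with Atf3 and Gm12981 with Sesn2 shared 0 exon bases, and Tulp2 with Ppp1r15a shared 12.

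Atf3 (ENSMUSG00000026628, chromosome 1, 191170296 to 191218039, minus strand), an early-response repressor, had a CPM of 24.6, 15.6 and 28.6 in controls and 28.9, 27.4 and 28.6 in knockdown cells. Control replicate 2 was 0.586 times the mean of the other controls, the widest departure downward of the 10 genes. Its fold change on the log2 scale was 0.30 (SE 0.22), and 0.08 (SE 0.09) without it. Ppp1r15a (ENSMUSG00000040435, chromosome 7, 45522916 to 45526268, minus strand) encodes GADD34, which brings a phosphatase to eIF2α and so ends the response. Its CPM was 27.0, 17.4 and 25.1 in controls and 26.9, 23.7 and 26.7 in knockdown cells, with control replicate 2 again the lowest library. A log2 fold change of 0.15 (SE 0.18) turned to -0.03 (SE 0.09) without that library.

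**Figure D2:**
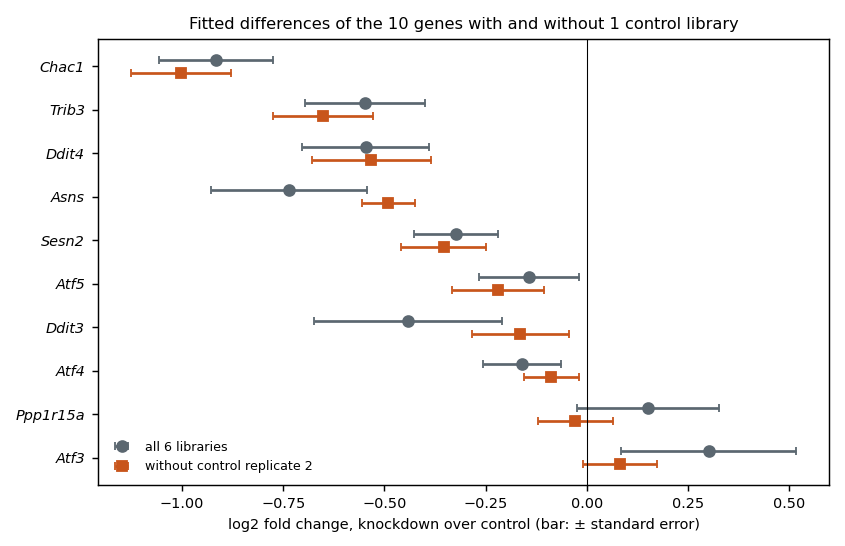
The log2 fold change of each of the 10 genes, knockdown over control, with all 6 libraries and without control replicate 2, with bars for the SE of the edgeR fit. Chac1 lies at -0.92 and -1.003, and Ppp1r15a moves from 0.15 to -0.03 when control replicate 2 is left out.

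In 6 of 10 genes (Atf4, Trib3, Chac1, Sesn2, Ddit4 and Asns) all knockdown libraries lay below all controls, and 10.7% of the 15307 genes did so. Without control replicate 2 it was 7 of 10, with Atf5 added, against 17.5% of all genes. In 0 of 10 genes did all knockdown libraries lie above the controls, with or without that library, against 14.7% and 20.4% of all genes. The median log2 fold change of the 10 was -0.38 with all libraries (all genes -0.01) and -0.29 without control replicate 2 (all genes -0.02), and 8 and 9 of 10 were negative, where 51.3% and 52.7% of all genes were. The edgeR test over all genes called 0 of 10 with all libraries, where it called 0.0588% of genes higher and 0.00653% lower. At an unadjusted p under 0.05 it had 5 of 10 lower and 0 higher, against 6.65% and 7.47% of all genes, and DESeq2 called 2 lower (Chac1 and Asns) and 0 higher, against 1.18% and 1.69%. In the fit without control replicate 2, edgeR called Trib3, Chac1 and Asns lower and none higher, against 0.675% and 1.11% of 15709 genes. Because the choice of the 10 used this contrast, nothing is read from these counts.

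On the TMM scale control replicate 2 shifted the 10 genes in both directions. Relative to the mean of control replicates 1 and 3 it was above 1 for Ddit3, Asns, Atf4 (1.18) and Ddit4 (1.05). It was below 1 for Sesn2 (0.957), Atf5 (0.866), Chac1 (0.842), Trib3 (0.808), Ppp1r15a (0.666) and Atf3. These ratios depend on the scaling, since the TMM factor of control replicate 2 was 0.711. In unscaled counts it was the lowest control for Atf4 (6220, 4751 and 5957) and Ddit4 (3541, 2573 and 3840). It was still the highest for Asns (4894, 5015 and 4695) and Ddit3 (432, 442 and 368). The knockdown libraries varied little by comparison in Atf3, with 28.3 ± 0.773 against 22.9 ± 6.66 CPM in controls (SD, n = 3).

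Scaling can be left out by dividing the counts of each gene by those of Atf4 in the same library. Chac1 had 9.94, 6.90 and 9.38 counts per 100 counts of Atf4 in controls and 5.12, 5.55 and 4.66 in knockdown cells, and the groups stayed apart. Asns had 78.7, 106 and 78.8 in controls and 56.6, 60.4 and 61.9 in knockdown cells, also without overlap. Ddit4 had 56.9, 54.2 and 64.5 in controls and 51.8, 34.3 and 48.1 in knockdown cells, likewise apart. Trib3 overlapped on this scale, with 7.22, 5.35 and 8.34 in controls and 5.56, 5.17 and 5.06 in knockdown cells, through control replicate 2. The remaining 5 genes overlapped as well. Relative to Atf4 mRNA, 3 of the 9 other genes had lower counts in each knockdown library than in each control, as had 4.51% of 15306 genes, and nothing is read from this count either.

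Levels of different genes were compared as CPM per kilobase of the gene's length. In controls Atf4 was the most abundant at 91.8 ± 8.98, then Ddit4 at 71.9 ± 5.90 and Asns at 70.2 ± 19.7 (SD, n = 3). The control ranges of Atf4 and Ddit4 did not meet, those of Ddit4 and Asns overlapped, and a wide gap followed to Chac1 at 11.4 ± 1.11. From Chac1 through Atf3 (10.6), Ddit3 (9.57), Ppp1r15a (7.89), Sesn2 (7.58) and Atf5 (7.23) to Trib3 (7.01), each gene overlapped with the next in controls, so the order of neighbours is not resolved. Chac1 lay above Ppp1r15a, Sesn2, Atf5 and Trib3 in all control libraries. In knockdown cells Atf4 was 82.1 ± 3.78, Ddit4 49.2 ± 9.74 and Asns 42.1 ± 1.68, with Ddit4 and Asns again overlapping. Atf3 came next at 13.1 ± 0.359, apart from the genes below it. Chac1, at 6.05 ± 0.785, overlapped there with Ddit3, Sesn2 and Atf5, so its place among them is not resolved, and Trib3 was the lowest at 4.80.

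**Figure D3:**
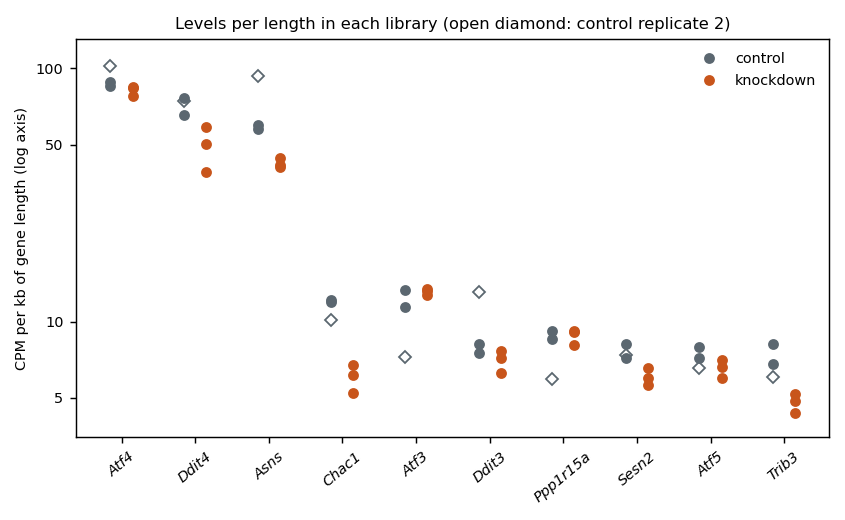
Level of the 10 genes as CPM per kilobase on a log axis, in order of the control mean, with 1 point per library for both groups. Atf4, Ddit4 and Asns stand apart from the other 7 genes in all libraries, and Chac1 drops from 11.4 in controls to 6.05 in knockdown cells.

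Other genes of the pathway were counted from lists written from general knowledge with earlier results of these data known. For that reason their values and calls are a description, as for the 10 genes, and nothing is read from the counts. Of 52 further genes commonly described as ATF4 targets, 50 passed the filter (Cbs and Fgf21 did not). With all libraries edgeR called 0 of 50 (0.00653% of all genes lower, 0.0588% higher). At an unadjusted p under 0.05 it had 16 lower and 2 higher (6.65% and 7.47% of all genes), and DESeq2 called 9 lower and 0 higher (1.18% and 1.69%). Leaving out control replicate 2, edgeR called 10 lower and 0 higher (0.675% and 1.11% of all genes), with 22 lower and 2 higher at an unadjusted p under 0.05 (10.3% and 9.54%). The median log2 fold change was -0.07 with all libraries and -0.13 without control replicate 2, and single genes without that library ran from -1.14 to 1.38, with 35 of 50 below 0, as were 52.7% of all genes. The lists that follow are to be read against the same shares of all genes. In the fit without control replicate 2, the 8 with the smallest p fell as follows.

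Vldlr, a lipoprotein receptor, was at 37.1, 33.8 and 41.1 CPM in controls and at 16.9, 17.7 and 19.1 CPM in knockdown cells (log2 fold change -1.14, SE 0.09, edgeR adjusted p = 0.0011). With all libraries its adjusted p was 0.0575. Nupr1, a stress-induced chromatin protein, was at 26.2, 71.4 and 31.0 CPM in controls and at 18.0, 15.4 and 15.4 CPM in knockdown cells (-0.82, SE 0.11, adjusted p = 0.0142), and with all libraries its log2 fold change was -1.39 (adjusted p = 0.302). Neither gene's groups overlapped, and control replicate 2 was the highest library for Nupr1 and the lowest control for Vldlr. Aldh1l2, the mitochondrial formyltetrahydrofolate dehydrogenase, fell by 0.62 on the log2 scale (SE 0.08, adjusted p = 0.0143), from 43.3 to 45.0 CPM in controls to 27.9 to 31.6 CPM in knockdown cells. Slc7a5, the large neutral amino acid transporter, fell by 0.53 (SE 0.07, adjusted p = 0.0155), from 163 to 180 CPM to 115 to 129 CPM. Both were tight within the groups and far apart between them. Pck2, the mitochondrial phosphoenolpyruvate carboxykinase, fell by 0.53 (SE 0.08, adjusted p = 0.0174) and Stc2, a secreted glycoprotein, by 0.74 (SE 0.12, adjusted p = 0.0276). Herpud1, an ER-associated degradation protein, fell by 0.47 (SE 0.08, adjusted p = 0.0312) and Jdp2, a bZIP repressor, by 0.44 (SE 0.07, adjusted p = 0.0268). The groups of Jdp2 overlapped when control replicate 2 (75.5 CPM) was included, at a log2 fold change of -0.28 (edgeR adjusted p = 0.403), and those of the other 7 named genes did not. With all libraries none of the 8 passed the edgeR test (adjusted p of 0.0575 to 0.403).

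**Figure D4:**
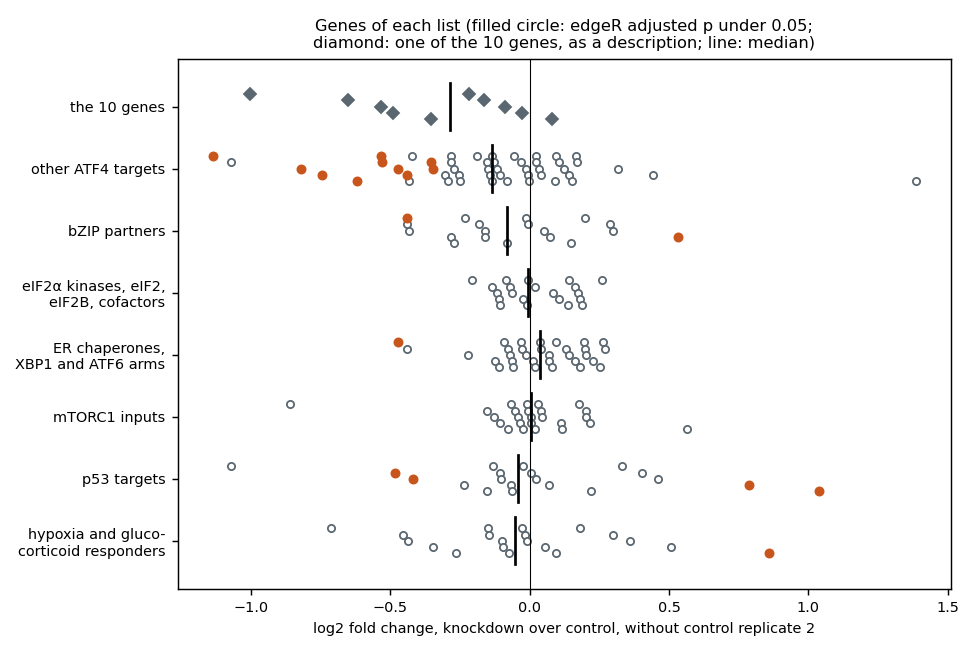
The log2 fold change of each gene tested, knockdown over control without control replicate 2, by list, with filled circles for an edgeR adjusted p under 0.05, diamonds for the 10 genes (as a description) and a line at each median. The further ATF4 targets have 10 filled circles, all below 0, around a median of -0.13.

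The genes upstream of ATF4 were counted next. Of 21 eIF2α kinases, eIF2 and eIF2B subunits and cofactors, all tested, edgeR called 0 in either fit, with 4 higher and 0 lower at an unadjusted p under 0.05 with all libraries (7.47% and 6.65% of all genes) and 4 higher and 1 lower without control replicate 2 (9.54% and 10.3%), and DESeq2 called 0. The median log2 fold change was -0.02 and -0.01. The most abundant were the phosphatase catalytic subunits Ppp1ca (404 to 424 CPM in controls, 388 to 414 CPM in knockdown cells) and Ppp1cc (321 to 362 CPM in controls, 277 to 319 CPM in knockdown cells). Their log2 fold changes without control replicate 2 were -0.02 (SE 0.07) and -0.21 (SE 0.08).

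Of 32 genes for ER chaperones and the XBP1 and ATF6 arms of the unfolded protein response, edgeR called 0 with all libraries (7 higher and 1 lower at an unadjusted p under 0.05, against 7.47% and 6.65% of all genes) and DESeq2 called 1 higher and 1 lower (1.69% and 1.18%). Without control replicate 2 edgeR called 1 lower, Herpud1, and the median was 0.04. Hspa5, the ER chaperone BiP, was looked up after its values were seen. It was at 522, 520 and 542 CPM in controls and at 650, 655 and 636 CPM in knockdown cells. All knockdown libraries lay above all controls, in contrast to Herpud1, at a log2 fold change of 0.27 without control replicate 2 (SE 0.06, edgeR adjusted p = 0.0789) and 0.29 with all libraries (edgeR adjusted p = 0.315). DESeq2, with all libraries, gave 0.28 and an adjusted p of 0.00102, so the call rests on the tool.

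Of 19 bZIP factors that pair with or resemble ATF4, edgeR called 0 with all libraries (2 higher and 1 lower at an unadjusted p under 0.05, against 7.47% and 6.65% of all genes) and DESeq2 called 0. Leaving out control replicate 2, edgeR called Nfe2l2 higher and Jdp2 lower (1.11% and 0.675% of all genes). Nfe2l2, which encodes the antioxidant factor NRF2, was at 440, 969 and 430 CPM in controls and at 616, 689 and 594 CPM in knockdown cells (log2 fold change 0.53, SE 0.08, edgeR adjusted p = 0.0194). The groups overlapped when control replicate 2, the highest library, was included, and the log2 fold change was then 0.05.

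Since Sesn2 and Ddit4 act on mTORC1 and are also switched on by p53, low oxygen and glucocorticoids, genes of those pathways were counted as well. Of 25 genes of the mTORC1 pathway, edgeR called 0 in both fits (2 higher and 1 lower at an unadjusted p under 0.05 with all libraries, 3 and 1 without control replicate 2) and DESeq2 called 1 lower (1.18% of all genes). The most abundant were Sec13 and Rheb. Sec13 was at 147, 193 and 164 CPM in controls and 188, 180 and 170 CPM in knockdown cells. Rheb was at 119, 205 and 146 CPM in controls and 130, 112 and 117 CPM in knockdown cells. The gene called by DESeq2, Lamtor2, was looked up after its values were seen. It was at 52.6, 159 and 87.2 CPM in controls and 45.5, 28.3 and 42.2 CPM in knockdown cells. Its log2 fold change was -1.36 with all libraries (edgeR adjusted p = 0.321). Without control replicate 2 it was -0.86 (edgeR adjusted p = 0.107).

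Of 20 p53 targets, edgeR called 1 higher with all libraries (0.0588% of all genes), Plk2, a polo-like kinase, at 23.7, 21.6 and 21.6 CPM in controls and 47.7, 46.6 and 46.3 CPM in knockdown cells. Its log2 fold change was 1.07 (SE 0.08, edgeR adjusted p = 0.0223). Without control replicate 2, Plk2 and the death receptor Fas (0.79, adjusted p = 0.0198) were higher, and the autophagy and growth regulators Trp53inp1 (-0.48, adjusted p = 0.0223) and Btg2 (-0.42, adjusted p = 0.0313) were lower, where 1.11% and 0.675% of all genes were. The groups of Fas overlapped when control replicate 2, at 27.6 CPM, was included, and its log2 fold change was then 0.19 (adjusted p = 0.821). The p53 targets called thus lay on both sides, and the list's median was 0.06 with all libraries and -0.04 without control replicate 2. Of 20 tested genes that respond to low oxygen or glucocorticoids, edgeR called 0 with all libraries (2 higher and 2 lower at an unadjusted p under 0.05, against 7.47% and 6.65% of all genes) and DESeq2 called 1 higher (1.69%). Without control replicate 2 edgeR called 1 higher (1.11%), the glucose transporter Slc2a1. It was at 16.3, 15.3 and 12.4 CPM in controls and 27.7, 24.9 and 26.2 CPM in knockdown cells. Its log2 fold change was 0.86 (SE 0.13, edgeR adjusted p = 0.018). With all libraries it was 0.84 (edgeR adjusted p = 0.144).

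Among close relatives of the 10 genes, edgeR called 0 of 3 tested in either fit, with 0 at an unadjusted p under 0.05. Trib1, a pseudokinase related to Trib3, was at 60.3, 47.9 and 52.9 CPM in controls and 58.0, 65.7 and 59.0 CPM in knockdown cells. Chac2, the second cyclotransferase of the Chac1 family, was at 6.33, 27.4 and 8.33 CPM in controls and 5.88, 6.95 and 6.07 CPM in knockdown cells. The groups of both overlapped.

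The genes whose log2 CPM followed Atf4 most closely over the 6 libraries, among 9590 genes with a mean of at least 10 CPM, were Aaed1, Hsd17b11, Melk, Gars and D6Wsu163e, with Pearson's r of 0.997 to 0.994. Over the 5 libraries without control replicate 2 they were Fbxo7, Shox2, D6Wsu163e, Tkt and Mipep, with r of 0.997 to 0.991, so 1 of 5 names was common to both. Among the 10 genes themselves, Ddit3 (0.96) and Asns (0.93) followed Atf4 most closely over the 6 libraries, and Atf3 (-0.89) and Ppp1r15a (-0.90) ran opposite to it. Over 5 libraries these became 0.79, 0.71, -0.23 and -0.37, and Trib3 (0.82) was then the closest. These correlations describe 6 or 5 libraries that share the groups and, in the first case, control replicate 2.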

How the data were processed

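RNA-seq was analysed in 3 control and 3 knockdown samples of MLE12 cells, grouped by the sample labels. The deposited counts are whole reads assigned to each gene, as the authors left them without normalization, and the deposited FPKM values were made from them with a library size of the authors' own (0.716 to 1.08 times the total count). The submitters' processing notes name HISAT2 2.0.5, StringTie 1.3.3b, featureCounts 1.5.0-p3 and mm10, with no role given, while the extract protocol also names a Trinity assembly. The use of strand is not given in the sources used here. Start and end positions equalled those of GENCODE M21 on GRCm38 for 98.3% of 54495 genes. No value columns were left unused (0).

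Genes of low count were removed by filterByExpr, TMM factors gave the library scaling, and genes were tested by quasi-likelihood in edgeR 4.0.16 under R 4.3.3. P-values were adjusted after Benjamini and Hochberg over the whole table, at a threshold of 0.05. All 6 libraries were fitted, and then 5 without control replicate 2. The biological coefficient of variation was 0.263 and 0.102. Total counts were 27273502 to 28535653 per library, with a TMM factor of 0.711 in control replicate 2 and of 1.05 to 1.09 in the others, and the 10 genes had 2115 to 34300 counts each over the 6 libraries. Alternatives were other scalings and count filters, fits with 1 library fewer, a replicate block, and the tools DESeq2 1.42.0 and limma 3.58.1 (voom quality weights, or log2 of FPKM plus 1 or 0.1). Motifs were searched in Python 3.11.15 (pandas 2.3.3) and plots drawn in matplotlib 3.10.9. The scripts were tested on simulated data.

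The 10 genes, the lists and the rule for naming genes were chosen with earlier results of these data known. The rule names all 10 genes, genes that overlap them by coordinates, the targeted genes and the 5 genes most like Atf4. Of each list it names those past an adjusted p of 0.05 in either fit (at most the 8 with the smallest p without control replicate 2) or, where there are none, the 2 of highest mean CPM.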

Additional observations from a re-analysis of the deposited data

How the results depend on the processing

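Chac1, Asns, Trib3, Ddit4, Sesn2 and Ddit3 kept a negative log2 fold change, and Atf3 a positive one, under all 17 alternatives. Atf4 and Atf5 turned positive with library size alone (0.03 and 0.01), where the median of all genes was higher, at 0.16. Ppp1r15a turned negative without control replicate 2 (-0.03). Leaving out 1 library at a time gave -1.003 to -0.82 for Chac1, -0.85 to -0.49 for Asns, -0.65 to -0.44 for Trib3 and -0.68 to -0.40 for Ddit4. Counts of calls depended far more on the alternative. Against 9 higher and 1 lower over all genes, library size alone gave 1 and 0, no count filter gave 3 lower, limma on log2(FPKM + 1) and on log2(FPKM + 0.1) gave 2 and 3 lower, DESeq2 gave 258 and 181, voom with quality weights gave 1327 and 971, and DESeq2 without control replicate 2, added after the data were seen, gave 539 and 371. Leaving out single libraries gave 0 to 175 higher and 0 to 106 lower, with both upper ends at control replicate 2. The deviations of control and knockdown libraries of the same number had correlations of -0.251, -0.191 and 0.0095. Those of different numbers had correlations of -0.063 to 0.254. With 3 libraries per group these values cannot tell whether the numbers pair the libraries. A fit with the replicate block called 0 higher and 0 lower, also in each list.

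Of the 10 genes, 2 were called lower by DESeq2 (1.18% of all genes), 5 with quality weights (6.34%), 4 by DESeq2 without control replicate 2 (2.36%), and 0 to 3 when single libraries were left out (0.675% of all genes without control replicate 2). In the same order (DESeq2, quality weights, DESeq2 without control replicate 2, single libraries left out), the further ATF4 targets had 9, 18, 17 and 0 to 10 lower, with 0, 3, 1 and 0 higher, and no count filter gave 1 lower. The genes upstream of ATF4 had 0, 3, 1 and 0 higher. The ER genes had 1, 5, 3 and 0 higher and 1, 1, 1 and 0 to 1 lower. The bZIP factors had 0, 2, 2 and 0 to 1 higher and 0, 2, 2 and 0 to 1 lower. The mTORC1 genes had 0, 2, 0 and 0 higher and 1, 1, 0 and 0 lower. The p53 targets had 3, 4, 4 and 0 to 2 higher (0 with library size alone and with the block) and 1, 4, 3 and 0 to 2 lower. The low oxygen and glucocorticoid genes had 1, 2, 1 and 0 to 1 higher and 0, 2, 2 and 0 lower. Apart from the fits that leave out a library or weight it, the cause of these differences was not tested. With all libraries the biological coefficient of variation was 0.263, and without control replicate 2 it was 0.102.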
